A study of Homo sapiens with 6 samples.

Results

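The AP-1 factor genes comprise FOS, FOSB, FOSL1, FOSL2, JUN, JUNB, JUND, ATF3, BATF and BATF3, which are 10 of the 20046 protein-coding genes of the annotation. They were selected on the frequency of TGACTCA, the sequence their products bind, which differed between the ATAC-seq peak lists. It lay within 100 bp of the summit of 5.55% of WT peaks, 3.54% of dKO peaks and 7.84% of peaks of BAF53B-expressing dKO NPCs. These shares chose the genes and are given as a description. For each gene, peaks were collected within 3 kb of the transcription start site (TSS), in the gene body and in 50 kb on each side of it. The last 2 zones are called the territory of the gene.

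The study examined chromatin accessibility in neural progenitor cells (NPCs) derived from H1, a human embryonic stem cell line. WT NPCs were unmodified. dKO NPCs carried knockouts of UTX (KDM6A) and JMJD3 (KDM6B), demethylases of lysine residues on histone H3, and came from drug-selected H1 clones. BAF53B-expressing dKO NPCs carried the same knockouts and received BAF53B by lentivirus, a subunit that the BAF remodelling complex holds in neurons, and their list is called dKO+BAF53B. Each group had 2 replicates, 6 samples in all, but the authors merged them into 1 peak list per group. The 3 lists therefore carry no replicate error, no test between groups was possible, and all differences below describe these pooled libraries.

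AP-1 proteins are leucine zipper transcription factors that bind DNA as dimers. Fos family proteins pair with Jun family proteins, Jun proteins can also pair with one another, and ATF and BATF proteins add further partners. Many of these genes are immediate early genes, which respond within minutes to growth factors, stress or neuronal activity through MAP kinases, serum response factor (SRF) and CREB. SRF binds the CArG box, which is known from the promoter of FOS, and CREB binds the CRE, TGACGTCA. BATF and BATF3 are known mainly from immune cells.

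The start regions of FOS and FOSB were called in WT and dKO alone, that of JUN held the highest promoter pileup of the family, and JUNB had no WT peak. Their sequences around the dKO summit are shown for these patterns, from hg38 in the direction of transcription. They lie at chr14:75278477-75278677 on the plus strand for FOS, chr19:45467637-45467837 on the plus strand for FOSB, chr1:58784082-58784282 on the minus strand for JUN and chr19:12791318-12791485 on the plus strand for JUNB. All of them lie upstream of the annotated TSS. Capitals mark a CArG box in FOS, a CRE followed by a CArG box in FOSB, and TGACATCA, a variant of the AP-1 and CRE sequences, in JUN. JUNB held no match to a searched motif in this window.
FOS: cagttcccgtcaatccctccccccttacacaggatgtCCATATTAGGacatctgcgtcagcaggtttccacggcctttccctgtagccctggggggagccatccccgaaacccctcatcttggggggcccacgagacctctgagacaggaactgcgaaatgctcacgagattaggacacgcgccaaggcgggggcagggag
FOSB: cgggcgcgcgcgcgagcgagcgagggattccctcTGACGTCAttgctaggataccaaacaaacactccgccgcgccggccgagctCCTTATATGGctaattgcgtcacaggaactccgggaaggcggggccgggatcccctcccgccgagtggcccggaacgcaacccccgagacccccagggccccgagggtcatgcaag
JUN: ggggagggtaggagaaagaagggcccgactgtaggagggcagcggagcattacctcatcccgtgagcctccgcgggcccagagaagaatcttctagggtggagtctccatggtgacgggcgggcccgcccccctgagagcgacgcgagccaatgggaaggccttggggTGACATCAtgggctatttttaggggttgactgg
JUNB: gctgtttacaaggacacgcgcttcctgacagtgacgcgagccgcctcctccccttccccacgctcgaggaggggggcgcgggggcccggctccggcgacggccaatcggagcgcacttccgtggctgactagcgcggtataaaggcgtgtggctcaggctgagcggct

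The lists differed greatly in length. WT held 7880 peaks, dKO 25439 and BAF53B-expressing dKO NPCs 16948. The genome background, the number of fragments expected at any position, was 6.33 in WT, 6.81 in dKO and 6.78 in dKO+BAF53B, so the depth behind the lists differed by at most 1.08-fold. The strength of a peak is given as its pileup, the number of fragments that cover its summit. The smallest pileup called was 25 in WT, 25 in dKO and 26 in dKO+BAF53B, so a gene without a peak may still have been accessible at a lower level. Ratios between lists are of pileups divided by each list's genome background, and their 95% intervals cover counting error only. In bulk cells, a higher pileup in all cells and a larger share of cells with open chromatin cannot be told apart.

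A promoter peak, one within 3 kb of the TSS, was present in WT for 5 of the 10 AP-1 genes, FOS, FOSB, FOSL2, JUN and JUND. The same 5 genes also had one in dKO, a pattern of 27.8% of all genes, and 4 of them had one in all 3 lists, beside 26.8%. In dKO NPCs FOSL1 and JUNB joined them, which made 7 genes. In BAF53B-expressing dKO NPCs the number was 6, the dKO genes without FOS. The shares over all protein-coding genes were 28.2% for WT, 56.4% for dKO and 45.0% for dKO+BAF53B. The 2 genes with a promoter peak in dKO but not in WT, beside 28.6% of all genes, also had one in dKO+BAF53B, as 16.2% of all genes and 56.6% of the genes gained in dKO did. No AP-1 gene had one in WT alone, where 0.399% of all genes did. FOS was the 1 AP-1 gene with a promoter peak in WT and dKO but none in dKO+BAF53B, a pattern of 1.06% of all genes and of 3.82% of the genes called in both WT and dKO. The annotated TSS of ATF3, BATF and BATF3 had no peak in any list, like those of 41.3% of all genes.

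**Figure D1:**
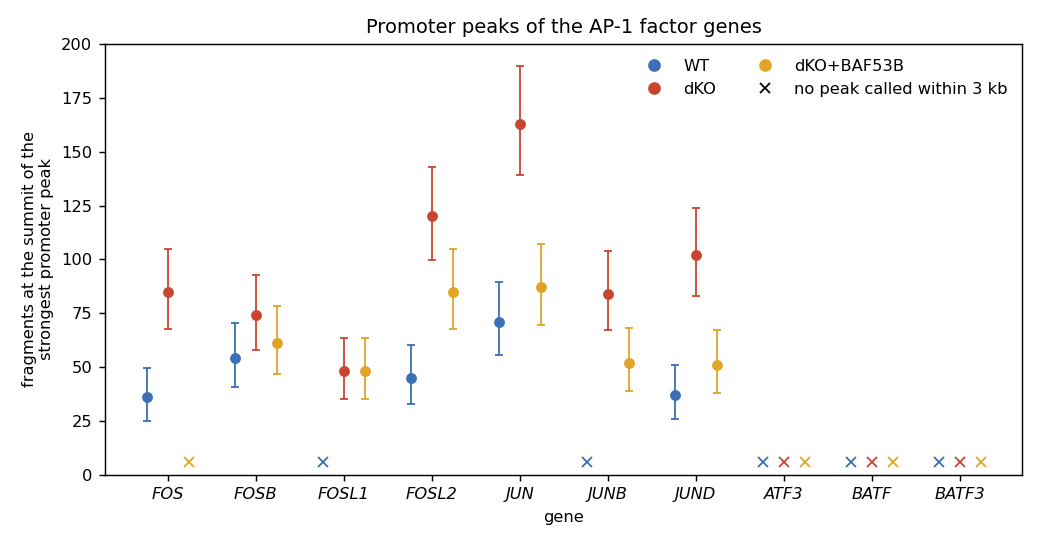
Fragments at the summit of the strongest promoter peak of each AP-1 gene (vertical axis) in each peak list; bars are exact Poisson 95% intervals for counting error only, and crosses near the axis mark genes without a called peak. JUN stands highest in every list, at 71 in WT, 163 in dKO and 87 in dKO+BAF53B, and FOS has no point in dKO+BAF53B.

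FOS, the founding member of its family and a classic immediate early gene (ENSG00000170345.10, chr14:75278826-75282230, plus strand), had a start peak of 36 fragments in WT and 85 in dKO, and none was called in dKO+BAF53B. The dKO pileup was 2.19-fold that of WT (95% interval 1.47 to 3.34). The summit lay 249 bp upstream of the TSS in dKO and 192 bp upstream in WT. Among the promoter peaks of its own list, the FOS peak ranked at percentile 33.3 in WT and 79.6 in dKO. A further promoter peak 1661 bp upstream, with 48 fragments, was called in dKO alone. For BAF53B-expressing dKO NPCs, a start peak at the dKO level would have held 84.6 fragments, and a peak at the WT level 38.5. The number needed for a call there was 48 over the local background seen in dKO and 36 over that seen in WT, so a peak of WT size lay close to the limit of detection.

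In dKO the FOS territory held the strongest peaks that lay away from the start of any protein-coding gene. A peak 19.6 kb upstream, in an intron of the non-coding gene ENSG00000258740, had 54 fragments in WT, 156 in dKO and 90 in dKO+BAF53B. Its dKO pileup was 2.68-fold that of WT (1.96 to 3.73) and 1.72-fold that in dKO+BAF53B (1.32 to 2.26). A peak 15.4 kb downstream of the TSS had 37 fragments in WT, 132 in dKO and 41 in dKO+BAF53B. It was 3.32-fold higher in dKO than in WT (2.29 to 4.91), the largest such ratio of any region in the territories, and 3.2-fold higher than in dKO+BAF53B (2.24 to 4.66). At this region the WT and BAF53B pileups were alike within counting error, with a ratio of 1.04 (0.648 to 1.66). Both regions were called in dKO+BAF53B, while the start of FOS was not.

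FOSB, a relative of FOS and also an immediate early gene (ENSG00000125740.15, chr19:45467995-45475179, plus strand), had peaks at 2 promoter regions that behaved differently. The start peak, 258 bp upstream of the TSS, had 38 fragments in WT and 74 in dKO and was not called in dKO+BAF53B. Its dKO pileup was 1.81-fold that of WT (1.21 to 2.75). The second region, in intron 1 and 1335 bp downstream of the TSS, had 54 fragments in WT, 56 in dKO and 61 in dKO+BAF53B. Here dKO and WT differed by less than the counting error, with a ratio of 0.964 (0.651 to 1.43), and the ratio of BAF53B to WT was 1.06 (0.72 to 1.55). The start peak was thus high in dKO and missing in dKO+BAF53B, while the pileup of the intronic peak was alike in the 3 lists. Over the local background, however, the intronic enrichment was 4.14 in WT, 2.58 in dKO and 4.15 in dKO+BAF53B. Because the intronic peak was the stronger in WT and the start peak the stronger in dKO, the gene's log2 ratio of 0.35 compares different regions. A start peak of WT size would have held 40.7 fragments in dKO+BAF53B, where 38 to 49 were needed for a call.

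FOSL1, which encodes FRA1 and is often induced later than FOS (ENSG00000175592.9, chr11:65892049-65900573, minus strand), had no promoter peak in WT. Its start peak had 48 fragments in dKO and 48 in dKO+BAF53B, with summits 33 and 30 bp upstream of the TSS. The ratio of dKO to BAF53B was 0.995 (0.653 to 1.52). At the dKO level, WT would have held 44.6 fragments, and 25 to 36 were needed for a call there, depending on the local background. The FOSL1 start was thus called in both knockout lists at the same height.

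FOSL2, which encodes FRA2 (ENSG00000075426.12, chr2:28392448-28417317, plus strand), had a peak in each list, with 45 fragments in WT, 120 in dKO and 85 in dKO+BAF53B. The dKO pileup was 2.48-fold that of WT (1.75 to 3.57) and 1.4-fold that in dKO+BAF53B (1.05 to 1.88). With BAF53B the peak was 1.76-fold higher than in WT (1.22 to 2.59). The order was therefore WT, BAF53B and dKO, with each step beyond counting error. The summit lay 371 bp downstream of the annotated TSS and 39 bp upstream of the start of the canonical transcript, which begins 410 bp further in. A weaker peak 2246 bp upstream of the TSS, with 44 fragments, was called in dKO+BAF53B alone.

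JUN (ENSG00000177606.9, chr1:58776845-58784048, minus strand), whose product c-Jun is the main partner of the Fos proteins and is activated by JNK, had the strongest promoter peak of the family in every list. It had 71 fragments in WT, 163 in dKO and 87 in dKO+BAF53B. The dKO pileup was 2.13-fold that of WT (1.61 to 2.86) and 1.86-fold that in dKO+BAF53B (1.43 to 2.45), while BAF53B and WT differed by less than counting error (1.14, 0.827 to 1.59). The peak was 707 bp wide in WT, 1321 bp in dKO and 840 bp in dKO+BAF53B, so dKO stood apart in width as well as in height. Against the local background the enrichment was 5.4 in WT, 8.39 in dKO and 5.16 in dKO+BAF53B. Within its own list the JUN peak ranked at percentile 96.5 in WT, 98.5 in dKO and 96.0 in dKO+BAF53B, so it ranked high in each.

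JUNB (ENSG00000171223.6, chr19:12791486-12793315, plus strand), a Jun protein with weaker activation than c-Jun and a known immediate early gene, had no peak in WT anywhere in its territory. In dKO 3 promoter peaks were called, with 84 fragments at 1435 bp upstream of the TSS, 76 at 68 bp upstream and 62 at 2145 bp downstream. With BAF53B the first and the second were called, with 52 and 50 fragments. The dKO pileup was 1.61-fold that in dKO+BAF53B at the upstream peak (1.12 to 2.32) and 1.51-fold at the start (1.04 to 2.21). Over the local background, the upstream enrichment was 3.37 in dKO and 3.19 in dKO+BAF53B. At the start it was 3.22 and 3.25. In WT the start peak would have held 70.6 fragments at the dKO level, and 25 to 53 were needed for a call. Among the AP-1 genes JUNB thus had the clearest contrast between a WT list without any peak and a dKO list with 12 territory peaks, of which 4 were also called in dKO+BAF53B.

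JUND (ENSG00000130522.6, chr19:18279694-18281622, minus strand), a Jun protein that many cells make without a stimulus, had a peak at each end of its short gene body. The peak at the end of the gene, 1960 bp downstream of the TSS, had 37 fragments in WT, 102 in dKO and 46 in dKO+BAF53B. Its dKO pileup was 2.56-fold that of WT (1.74 to 3.84) and 2.21-fold that in dKO+BAF53B (1.54 to 3.2). The start peak, 319 bp upstream of the TSS, was not called in WT and had 88 fragments in dKO and 51 in dKO+BAF53B, a ratio of 1.72 (1.2 to 2.47). At the dKO level, WT would have held 81.8 fragments at the start, and 25 to 47 were needed for a call. In WT the promoter peak of JUND was therefore the one at the far end of the gene.

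ATF3, a stress-induced member of the ATF family that pairs with Jun proteins (ENSG00000162772.18, chr1:212565334-212620777, plus strand), had no peak at its annotated TSS. The canonical transcript starts 43427 bp downstream, and there a peak was present in every list, with 45 fragments in WT, 82 in dKO and 90 in dKO+BAF53B. The dKO pileup was 1.69-fold that of WT (1.16 to 2.49), and that in dKO+BAF53B was 1.87-fold (1.29 to 2.74). The dKO and BAF53B values differed by less than counting error (0.906, 0.664 to 1.24). ATF3 thus stood above WT in both knockout lists, whereas JUN stood above WT beyond counting error in dKO. This peak is counted in the territory and not as a promoter peak. With canonical starts the number of AP-1 genes with a promoter peak becomes 6 in WT, 8 in dKO and 7 in dKO+BAF53B. The share of all genes with a promoter peak at canonical starts was not computed, so these counts have no background.

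BATF (ENSG00000156127.8, chr14:75522455-75546993, plus strand) and BATF3 (ENSG00000123685.9, chr1:212686417-212699840, minus strand) had no promoter peak and no WT peak in their territories. BATF had 3 territory peaks in dKO and 2 in dKO+BAF53B, all downstream of the gene. A peak 38.7 kb from its TSS had 38 fragments in dKO and 39 in dKO+BAF53B, and one at the start of the neighbouring gene FLVCR2 had 37 in dKO and 37 in dKO+BAF53B. The last BATF peak had 34 fragments and was called in dKO alone. The territory of BATF3 overlaps that of ATF3, and its 2 peaks, with 38 fragments in dKO alone and 35 in dKO+BAF53B alone, lie in both.

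In dKO the order of promoter pileups was JUN with 163 fragments (exact Poisson interval 139 to 190), FOSL2 with 120, JUND with 102, FOS with 85, JUNB with 84, FOSB with 74 and FOSL1 with 48. Only JUN over FOSL2 (1.36, 1.07 to 1.73) and FOSB over FOSL1 (1.54, 1.06 to 2.27) were neighbours that differed beyond counting error. In WT the order was JUN, FOSB, FOSL2, JUND and FOS, and in dKO+BAF53B it was JUN, FOSL2, FOSB, JUNB, JUND and FOSL1. No neighbours in either order differed beyond counting error.

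All 5 AP-1 genes with a WT and a dKO promoter peak had the higher scaled pileup in dKO, as 96.3% of the 5576 such genes did. The pileup was over 1.5-fold higher for 4 of them, compared with 66.6% of all such genes. Their median log2 ratio was 1.13, or 2.19-fold, beside 0.77, or 1.7-fold, over all these genes. The ratios of JUND, FOSL2, FOS and JUN stood at percentiles 93.0, 91.1, 82.3 and 79.6 of all genes, and that of FOSB at 17.0. Measured as enrichment over the local background, which at JUN was 12.3 fragments in WT and 18.5 in dKO, the median log2 ratio was 0.56, beside 0.49 over the 5576 genes, so the AP-1 genes lay closer to the median gene than by pileup. On this scale FOSL2, JUN, JUND and FOS stood at percentiles 87.8, 68.0, 58.0 and 51.1, and FOSB, at -0.18, at 2.89. The FOSB value again sets the dKO start peak against the WT intronic peak. At the FOSB start the enrichment was 2.89 in WT and 3.66 in dKO, and in the intron 4.14 and 2.58. Of the 6 AP-1 genes with a promoter peak in dKO and in dKO+BAF53B, 5 had the higher scaled pileup in dKO, beside 86.3% of 8604 genes, and 3 were over 1.5-fold higher, beside 35.6%. For FOSB this sets the dKO start peak against the intronic peak in dKO+BAF53B. For JUND it sets the dKO peak at the end of the gene against the start peak in dKO+BAF53B. Compared at the same region, the JUND ratios were 2.21 at the end and 1.72 at the start. Where the same region is compared, with a ratio of 0.913 at the FOSB intron, 4 of the 6 genes were higher in dKO. The 86.3% uses the strongest peak of each list, and the same-region share over all genes was not computed. The median log2 ratio of BAF53B to dKO was -0.59 over these 6 genes and -0.44 over all 8604.

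**Figure D2:**
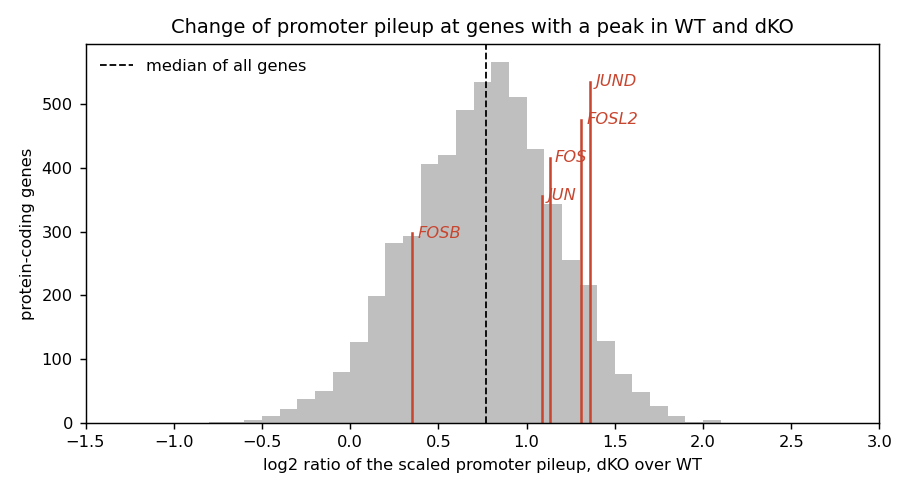
Number of protein-coding genes (vertical axis) by the log2 ratio of scaled promoter pileup, dKO over WT (horizontal axis), for the 5576 genes called in both lists; the dashed line is their median and red lines mark AP-1 genes. FOS, FOSL2, JUN and JUND lie right of the median of 0.77 and FOSB lies left of it at 0.35.

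The territories spanned 1114 kb after merging and held 17 peaks in WT, 62 in dKO and 35 in dKO+BAF53B. These were 0.216%, 0.244% and 0.207% of the lists, so the number of peaks around the AP-1 genes followed the lengths of the lists. A territory peak was found for 7 of the 10 genes in WT, beside 58.7% of all genes, and for all 10 in dKO and in dKO+BAF53B, beside 85.3% and 77.2%. From WT to dKO to BAF53B, the counts per gene were 3, 7 and 3 for FOS, 5, 14 and 7 for FOSB, 3, 10 and 9 for FOSL1, and 1, 1 and 2 for FOSL2. They were 1, 3 and 1 for JUN, 0, 12 and 4 for JUNB, and 3, 8 and 4 for JUND. ATF3 had 1, 4 and 3, BATF 0, 3 and 2, and BATF3 0, 1 and 1. The count was thus higher in dKO than in WT for each gene except FOSL2, while 74.5% of all genes had more territory peaks in dKO than in WT. It was higher in dKO than in dKO+BAF53B for 8 of the 10, beside 55.2% of all genes. The median per gene was 1, 5.5 and 3 for the AP-1 genes and 1, 3 and 2 for all genes.

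**Figure D3:**
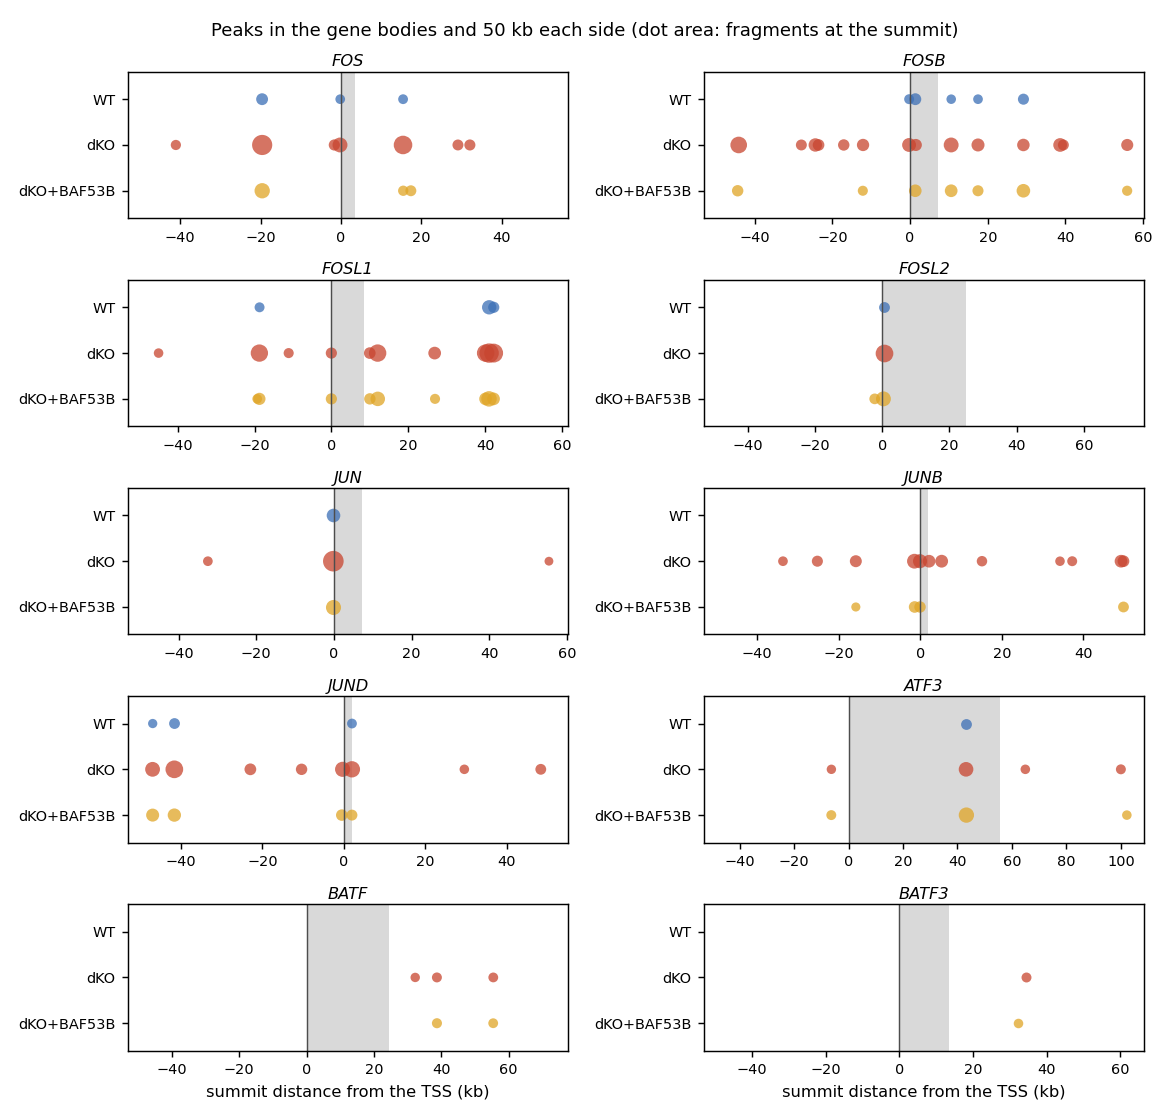
Peaks in the territory of each AP-1 gene, placed by the distance of the summit from the TSS in kb (horizontal axis, positive downstream) with a line per peak list; dot area is proportional to the fragments at the summit, the grey band is the gene body and the vertical line the TSS. JUNB, BATF and BATF3 have no WT dot, and the largest dots around FOS lie 19.6 kb upstream and 15.4 kb downstream.

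The peaks merged into 66 regions. Of these, 15 were called in all 3 lists, 29 in dKO alone, 16 in dKO and in dKO+BAF53B, 4 in dKO+BAF53B alone and none in WT alone. The 2 remaining regions, called in WT and dKO but not in dKO+BAF53B, were the start peaks of FOS and FOSB. All 17 WT peaks in the territories overlapped a dKO peak (100%, Wilson 95% interval 81.6 to 100), where 79.4% of the whole WT list did, and 15 of 17 overlapped a peak in dKO+BAF53B (88.2%, 65.7 to 96.7), where 79.5% of the list did. Of the 17, however, 6 lay at the start of an AP-1 gene and 7 at that of another protein-coding gene. Such peaks were mostly shared over all genes too, since 5576 of the 5656 genes with a WT promoter peak also had one in dKO. A WT peak overlapped 17 of the 62 dKO peaks (27.4%, 17.9 to 39.6), beside 24.4% of the dKO list, and a dKO+BAF53B peak overlapped 31 (50%, 37.9 to 62.1), beside 44.3%. The annotated gene starts leave the peak at the canonical start of ATF3 uncounted. By them, 13 regions lay within 3 kb of the TSS of an AP-1 gene. Of the others, 17 lay at the start of another protein-coding gene and 36 at neither. Of those 36, 4 were called in WT, 34 in dKO and 13 in dKO+BAF53B.

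Height followed the same order as number. Of the 17 regions in both WT and dKO, 16 had the higher scaled pileup in dKO, with a median ratio of 2.26 and an interval above 1 for 15. The intronic FOSB region was the exception, at 0.964. Among the 6255 WT peaks of the whole list with a dKO counterpart, 91.5% were higher in dKO, with a median ratio of 1.63. That list mixes gene starts with other peaks, while most of the 17 regions lay at gene starts. For promoter peaks in both lists, the median over all genes was 1.7-fold. Of the 31 regions in dKO and in dKO+BAF53B, 24 were higher in dKO, with a median ratio of 1.48, beside 80.0% and 1.29 over 11308 pairs. Of the 15 in WT and in dKO+BAF53B, all were higher in dKO+BAF53B, with a median ratio of 1.4 and an interval above 1 for 5, beside 77.9% and 1.18 over 6267 pairs.

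The binding sequence of AP-1 itself was counted in the territory peaks. Within 100 bp of a summit it occurred in 1 of 17 territory peaks in WT (5.88%, 1.05 to 27.0), 4 of 62 in dKO (6.45%, 2.54 to 15.4) and 4 of 35 in dKO+BAF53B (11.4%, 4.54 to 26.0). At this window each interval included the share of its whole list, which was 5.55%, 3.54% and 7.84%. Over the whole peak the sequence was found in 9 of 62 in dKO (14.5%, beside 8.2% of the dKO list). Within 50 bp of the summit it was found in 4 of 62 in dKO (6.45%, 2.54 to 15.4). The share of the dKO list was then 1.95%, below that interval. In dKO+BAF53B it was found within 50 bp in 2 of 35 (5.71%, beside 4.39% of that list). The 5 regions that held it are shown by gene and distance from the TSS, as hg38 plus-strand sequence, with the match in capitals, as TGACTCA or its reverse complement TGAGTCA. They are FOSB at chr19:45455869-45455925, FOSL2 at chr2:28392851-28392879, ATF3 upstream at chr1:212559002-212559058, the region shared by ATF3 and BATF3 at chr1:212667534-212667590, and BATF at chr14:75554711-75554767.
FOSB, 12.1 kb upstream: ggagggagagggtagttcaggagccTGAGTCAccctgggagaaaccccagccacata
FOSL2, start: tgccattgtagTGACTCAtctcgggcaga
ATF3, 6.33 kb upstream: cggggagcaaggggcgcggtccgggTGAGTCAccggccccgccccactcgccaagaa
ATF3 and BATF3, between the genes: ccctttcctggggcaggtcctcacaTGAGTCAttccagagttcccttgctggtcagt
BATF, 32.3 kb downstream: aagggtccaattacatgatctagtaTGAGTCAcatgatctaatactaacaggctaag

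Of these, the FOSL2 start was called in all 3 lists, as described. The FOSB region had 58 fragments in dKO and 39 in dKO+BAF53B, and the upstream ATF3 region 34 and 38. The region between ATF3 and BATF3, with 35 fragments, was called in dKO+BAF53B alone, and the BATF region, with 34, in dKO alone. None of the last 4 was called in WT. In RefSeq promoter windows of GRCh38.p14, from 250 bp before to 50 bp after the start, TGACTCA on either strand was found in 4.95% of 35116 windows. FOSL2 was the 1 AP-1 gene that held it, of 8 matched.

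The CArG box, searched on both strands, lay in the start peaks of FOS and FOSB, 312 and 273 bp upstream of their TSS, and in the FOS peak 15.4 kb downstream. With the peak 41.1 kb from the FOSL1 TSS, at the starts of CFL1 and MUS81, it lay in 4 of 62 dKO territory peaks (6.45%, 2.54 to 15.4), where 0.936% of the dKO list held it. The RefSeq windows held a CArG box in 1.29% of cases and in no AP-1 gene, since the windows end short of the FOS and FOSB boxes. The FOS and FOSB start peaks were the 2 AP-1 regions called in WT and dKO but not in dKO+BAF53B, and both held a CArG box. Over the whole lists, however, dKO peaks that overlapped a WT peak lacked a BAF53B counterpart in 3 of 67 cases with a CArG box (4.48%, 1.53 to 12.4) and in 433 of 6138 without (7.05%, 6.44 to 7.72). The FOS and FOSB starts were 2 of those 3.

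The CRE, TGACGTCA, lay in the FOSB start peak, 324 bp upstream of the TSS, and in 3 further regions. These lay 24.4 kb upstream of the FOSB TSS, 38.6 kb downstream of it at the start of VASP, and 6.33 kb upstream of the ATF3 TSS. The CRE was thus in 4 of 62 dKO territory peaks (6.45%, 2.54 to 15.4), where 1.39% of the dKO list held it. In WT it was in 1 of 17 (5.88%, 1.05 to 27.0), where 2.51% of the list held it. It was found in 1.85% of RefSeq windows, among them that of JUND. Its first bases, TGACGT, which overlap the CRE, were found in 7.98% of windows, among them FOS, FOSB, FOSL2 and JUND. The JUN variant TGACATCA, 66 bp upstream of the JUN TSS, was found in 2.61% of windows, among them JUN and ATF3. These matches describe the letters of the windows.

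Genes around AP-1 in its pathway were also counted. Their counts are to be read beside the shares over all protein-coding genes, which were 28.2% for WT, 56.4% for dKO and 45.0% for dKO+BAF53B, and their ratios beside the 96.3% of shared genes that were higher in dKO and the all-gene median of 0.77. Among 13 kinases and regulators upstream of AP-1, a promoter peak was present for 8 in WT (61.5%), 12 in dKO (92.3%) and 13 in dKO+BAF53B (100%), and all 8 in both WT and dKO had the higher pileup in dKO (median log2 ratio 1.04). SRF had 66 fragments in WT, 160 in dKO and 82 in dKO+BAF53B, close to the values of JUN. MAPK8, which encodes JNK1, had no WT peak, 58 fragments in dKO and 47 in dKO+BAF53B. MAPK3, which encodes ERK1, was the 1 gene of the list with a peak in dKO+BAF53B alone, at 41.

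Among 13 other immediate early genes, a promoter peak was called for 5 in WT (38.5%), 12 in dKO (92.3%) and 10 in dKO+BAF53B (76.9%). EGR1, a zinc finger factor induced together with FOS, had 54 fragments in WT, 122 in dKO and 54 in dKO+BAF53B, so its WT and BAF53B pileups were equal. IER2 and DUSP1, a phosphatase of MAP kinases, resembled JUNB, with no WT peak, 94 and 67 fragments in dKO and 47 and 53 in dKO+BAF53B. CCN1 and ZFP36 were called in dKO alone, with 50 and 51 fragments. Of the 5 genes called in both WT and dKO, all were higher in dKO (median log2 ratio 0.78).

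Among 15 relatives of AP-1, a promoter peak was called for 6 in WT (40%), 12 in dKO (80%) and 9 in dKO+BAF53B (60%), and all 6 shared genes were higher in dKO (median log2 ratio 0.76). JDP2, which represses AP-1 activity and neighbours BATF, was called in dKO alone with 38 fragments, as were BATF2 with 45 and NFE2L3 with 33. NFE2L2, which encodes the oxidative stress regulator NRF2, was called in dKO+BAF53B alone with 35. BACH2 had 35 fragments in WT and 42 in dKO and none called in dKO+BAF53B, which is the pattern of FOS.

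Among 14 genes known as AP-1 targets in other cells, a promoter peak was called for 3 in WT (21.4%), 7 in dKO (50%) and 4 in dKO+BAF53B (28.6%), and 6 had none in any list, among them MMP1, MMP3, MMP9 and CXCL8. CCND1, which encodes cyclin D1, had 37 fragments in WT and 114 in dKO and none called in dKO+BAF53B. PLAU, the urokinase gene, was called in dKO+BAF53B alone with 37 fragments, and IL6, HMOX1 and TIMP1 in dKO alone with 37, 57 and 34. The 3 shared genes were higher in dKO (median log2 ratio 1.12), although VIM differed little, with 34 fragments in WT, 37 in dKO and 52 in dKO+BAF53B.

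**Figure D4:**
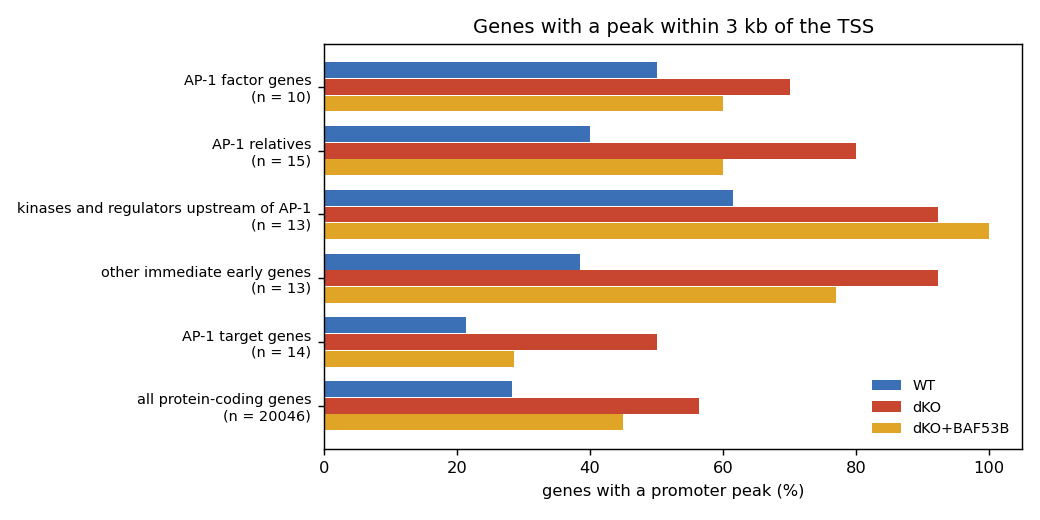
Percentage of genes with a peak within 3 kb of the TSS (horizontal axis) in each peak list, for the AP-1 factor genes, 4 lists of pathway genes and all protein-coding genes, with the number of genes in parentheses. In every group of genes the dKO bar is longer than the WT bar, as it is for all genes at 56.4% and 28.2%.

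Markers were checked against the same shares of all genes (28.2%, 56.4% and 45.0%). Of 12 NPC markers, 2 were called at the promoter in WT (HES1 and VIM; 16.7%), 9 in dKO (75%) and 6 in dKO+BAF53B (50%). NES, PAX6 and OTX2 had none in any list. Of 4 epithelial markers, 1 was called in WT (25%), 4 in dKO (100%) and 1 in dKO+BAF53B (25%), with EPCAM at 31, 96 and 44 fragments and CDH1 at 69 in dKO alone. Of 6 fibroblast or mesenchyme markers, 0 were called in WT, 2 in dKO (33.3%) and 1 in dKO+BAF53B (16.7%), and of 5 pluripotency markers LIN28A was called in dKO and in dKO+BAF53B, while POU5F1 and NANOG had no peak. The part of other cell types in the values of the AP-1 genes was not tested.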

How the data were processed

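The samples were WT, dKO and BAF53B-expressing dKO NPCs, each in 2 replicates profiled by ATAC-seq. Per the study's methods and the submitters' processing notes, the authors used cutadapt 1.13 for trimming, Bowtie2 2.2.5 for alignment to hg38, SAMtools 1.3.1 and Picard 1.90 for duplicates, and MACS2 for peaks. Replicates were pooled into 1 list per group. The Tn5 shift and the peak calling options are not given in the sources used here, and the authors' differential calls were left aside.

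The deposited fold is the ratio of summit pileup to local background, both raised by a pseudocount of 1. The deposited −log10 p-value tests the same pileup, the deposited −log10 q-value is its adjusted form, and the lists hold peaks with a −log10 q of 5 or more. The deposited score is a rounded form of the −log10 p-value and entered no result. From fold and −log10 p the whole number of fragments at each summit was recovered for 100% of peaks (tolerance 0.01 in −log10 p), and the lowest background of a list served as its depth. On 5000 simulated peaks, 100% were recovered. Fragments are counted after PCR, so intervals cover counting error only. Wilson intervals were used for shares, exact Poisson intervals for pileups and exact conditional binomial intervals for ratios of pileups.

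Genes came from GENCODE version 44. An overlap of 1 bp counted. The strongest promoter peak of a gene was used in each list. The number of fragments needed for a call was computed at the lowest −log10 p of the list, once over its genome background and once over the local background of the list with the peak, scaled by depth. Motifs were matched on both strands in hg38 within 100 bp of the summit. Promoter windows are from RefSeq (GRCh38.p14), where 8 of the 10 genes matched. All 10 genes are named. Of the other lists, genes are named where their promoter peak is in 1 or 2 lists, and SRF, EGR1, HES1, VIM, EPCAM and genes without a peak were added as examples after their values were seen. The genes with pileups nearest to those of JUN are not reported here.

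The AP-1 genes, the lists and the alternatives were chosen with earlier results of these data known. TGACATCA, TGACGT and the comparison of dKO with dKO+BAF53B at the same region were added after the data had been seen. Results were recomputed with a stricter −log10 q of 10, lists of equal length, windows of 1 kb, flanks of 10 and 100 kb, other transcript starts, summit position, 50% reciprocal overlap, fold or −log10 p in place of the pileup, and motif windows of 50 bp or the whole peak. The software was Python 3.11.15 with matplotlib 3.10.9, pysam 0.24.0, scipy 1.17.1, pandas 2.3.3 and numpy 2.4.6.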

Additional observations from a re-analysis of the deposited data

How the results depend on the processing

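No paired analysis was possible because a single merged peak list stands for each pair of replicates, and leaving out each replicate was not run for the same reason. Of the alternative values of the main results, 41 stayed within 1.5 times the reported value or within an interval, and 14 moved. The interval was the Wilson interval for shares and, for the median log2 ratio, that of FOS, the gene at the median. A median of 0.56 by enrichment, beside 1.13 by pileup, thus counted as having stayed. So did 14.5% of dKO territory peaks with the AP-1 sequence over the whole peak, beside 6.45% within 100 bp. With a −log10 q of at least 10, the AP-1 genes with a promoter peak fell to 2 in WT (FOSB and JUN), those with one in dKO but not in WT rose to 5, and territory peaks numbered 6 in WT, 37 in dKO and 19 in dKO+BAF53B, where 14.3%, 42.2% and 28.7% of all genes had a promoter peak. No WT territory peak then held the AP-1 sequence (0 of 6). With each list limited to its 7880 most significant peaks, 1 gene (JUNB) had a promoter peak in dKO but not in WT, the territories held 17 peaks in WT, 26 in dKO and 26 in dKO+BAF53B, so that dKO no longer exceeded dKO+BAF53B, and 28.2%, 33.3% and 31.1% of all genes had a promoter peak in WT, dKO and in dKO+BAF53B. A flank of 10 kb left 8, 20 and 14 territory peaks in the same order of lists, and one of 100 kb gave 29, 96 and 57. FOSB changed direction: its log2 ratio of dKO to WT was 0.35 by strongest peaks and -0.18 by enrichment over the local background. Both values compare the dKO start peak with the WT intronic peak. Within a region, the log2 ratio of pileups was 0.86 at the start and -0.05 in the intron. The median log2 ratio of the AP-1 genes was 0.56 by enrichment, 1.66 by −log10 p and 1.11 over 4 genes within 1 kb, where JUND has no WT peak. Just inside the flank of 50 kb lay a dKO peak 48.5 kb from FOSB (56 fragments), and just outside it a dKO peak 50.1 kb from BATF3 (25 fragments). Lists of called peaks do not show accessibility below 25 fragments, and over a higher local background the limit was higher. At the FOSL1 start and the upstream JUNB region, 36 and 55 fragments were needed in WT over the local background seen in dKO.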
